A study of Homo sapiens with 3 samples.

Results

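In all, 10 genes of the pluripotency network other than the core factors POU5F1, SOX2 and NANOG were followed in RNA-seq of H9, an established human embryonic stem cell line. The 10 genes were SALL4, DPPA2, DPPA4, L1TD1, UTF1, ZSCAN10, FOXD3, ZFP42, PRDM14 and TRIM71, and they were taken by symbol from the 58051 genes with counts, 19629 of which are protein-coding. The wild-type cells had received no treatment and grew in Essential 8 Flex medium on vitronectin. Total RNA from 3 replicates was depleted of ribosomal RNA and sequenced, and no source says whether the replicates were separate cultures, so the spread between them may be technical. With 1 condition there is no contrast to test, and all values describe untreated cells. The libraries held between 8655155 and 12024802 counted reads.

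In embryonic stem cells the core factors act together with other proteins that bind DNA, modify chromatin or control RNA. SALL4, ZSCAN10, ZFP42 (also called REX1) and PRDM14 are zinc finger proteins, FOXD3 is a forkhead factor, UTF1 and the pair DPPA2 and DPPA4 are chromatin proteins, and L1TD1 and TRIM71 (also called LIN41) bind RNA. Many of these genes are silenced when the cells differentiate and serve as markers of the undifferentiated state. Levels are given in TPM, a measure of transcripts that corrects reads for the exon length of a gene and has the same sum in every replicate, so that genes can be compared. CPM, reads scaled to the library total and not to length, is used where replicates of 1 gene are compared.

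The 10 cofactors spanned a 67.9-fold range of mean TPM, from 1215 for L1TD1 to 17.9 for DPPA2. Their median was 294 TPM, against 7.10 TPM over all protein-coding genes. In RNA from whole cultures, few cells with a transcript and little of it in each cell cannot be told apart. Expression classes followed the rule of the study, with genes under 0.01 TPM called nonexpressed and the others divided into 3 equal classes, and the high class began at 26.96 TPM. Of the 10 cofactors, 8 were in the high class, which held 28.8% of protein-coding genes, and UTF1 and DPPA2 were in the medium class. L1TD1, DPPA4, TRIM71, ZFP42, PRDM14 and SALL4, 6 genes in all, were each above at least 95% of protein-coding genes. Together the 10 genes held 0.422% of all counted reads, and L1TD1, TRIM71 and DPPA4 held 76.5% of that.

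**Figure D1:**
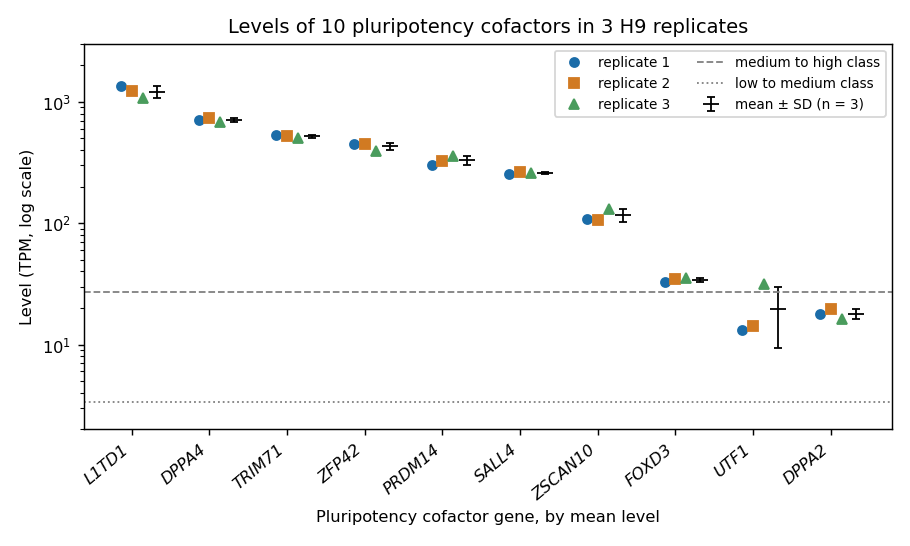
Level of each cofactor gene in TPM, on a log axis, with 1 point for each of the 3 replicates and the mean with its SD (n = 3) beside them. The dashed line at 26.96 TPM and the dotted line at 3.35 TPM are the lower boundaries of the high and medium classes, and only UTF1 has replicates on both sides of the dashed line.

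DPPA2 and DPPA4 lie side by side on the minus strand of chromosome 3, with 9626 bp between them, and their proteins share a SAP domain and bind chromatin as a heterodimer. DPPA2 (ENSG00000163530, 109293788 to 109316517) had 17.8, 19.6 and 16.3 TPM in replicates 1, 2 and 3, a mean of 17.9 ± 1.65 TPM (SD, n = 3), from 64, 82 and 50 reads. DPPA4 (ENSG00000121570, 109326144 to 109337546) had 715, 731 and 685 TPM, a mean of 710.2 ± 23.3 TPM (SD, n = 3), from 9243, 10985 and 7551 reads. The partners thus lay at opposite ends of the range, DPPA4 being 40.2, 37.3 and 42.0 times as high as DPPA2 in TPM in the 3 replicates. TPM divides DPPA4 by 4967 bp of exons from 8 annotated transcripts and DPPA2 by 1383 bp from 1 transcript. The size of the ratio depends on this length, and the ratio of means, 39.7, was 64.8 with the longest transcript and 70.7 with the canonical transcript of each gene. In reads alone DPPA4 exceeded DPPA2 by 144, 134 and 151 times. Exact Poisson intervals (95%) for the CPM of DPPA2 were 4.74 to 7.87, 5.42 to 8.46 and 4.29 to 7.62, which overlap in every pair of replicates. Such intervals take in counting error alone and no variation between libraries or cultures. Whether reads copied by PCR from 1 molecule were counted as separate is not given in the sources used here. If they were, the intervals are too narrow.

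The 250 bases before the annotated start of both genes are shown because the genes are neighbors with so different a level. They come from RefSeq promoters on GRCh38.p14, minus strand, at chr3:109337547-109337796 for DPPA4 and chr3:109316518-109316767 for DPPA2. Capitals mark matches on either strand to the CCAAT box (CCAAT) and the GC box (GGGCGG), and the TATA box (TATAAA) and the octamer (ATGCAAAT) bound by POU factors were searched as well.
DPPA4: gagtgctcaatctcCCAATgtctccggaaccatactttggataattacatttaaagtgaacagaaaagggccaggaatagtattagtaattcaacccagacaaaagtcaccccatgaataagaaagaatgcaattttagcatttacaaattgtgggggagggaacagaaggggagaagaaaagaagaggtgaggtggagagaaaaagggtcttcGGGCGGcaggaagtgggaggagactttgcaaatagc
DPPA2: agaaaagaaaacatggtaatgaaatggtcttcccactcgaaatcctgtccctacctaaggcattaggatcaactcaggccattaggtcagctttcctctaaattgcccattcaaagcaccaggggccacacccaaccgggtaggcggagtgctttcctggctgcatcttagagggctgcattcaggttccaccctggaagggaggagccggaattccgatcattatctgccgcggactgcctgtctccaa
The stretch of DPPA4 held 1 CCAAT box, 236 bases before the start, and 1 GC box, 36 bases before it. That of DPPA2 held none of the 4 motifs. GC content was 43.2% in the stretch of DPPA4, with 3 CpG, and 52.0% in that of DPPA2, with 7 CpG. A match describes letters and no binding. An annotated lncRNA gene on the opposite strand, ENSG00000289358, starts 194 bp from the start of DPPA4 and is not among the genes with counts.

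UTF1, a chromatin protein of pluripotent cells, is encoded by a short gene with 2 exons (ENSG00000171794, chromosome 10, 133230217 to 133231558, plus strand). It had 13.3, 14.2 and 31.5 TPM in replicates 1, 2 and 3, from 42, 52 and 85 reads, with a mean of 19.7 ± 10.3 TPM (SD, n = 3). Replicate 3 stood above the other two, although it was the smallest library. In CPM, UTF1 had 4.04 (exact Poisson 95% interval 2.91 to 5.46), 4.32 (3.23 to 5.67) and 9.82 (7.84 to 12.1), so that the interval of replicate 3 overlapped neither of the others. UTF1 was in the medium class in replicates 1 and 2 and in the high class in replicate 3, and it was the cofactor whose class differed between replicates. Without replicate 3 its mean was 13.7 TPM. Its transcript is the richest in GC of the 10, at 76.9%, and the GC-rich bases before its start are shown here, from chr10:133229967-133230216 on the plus strand of GRCh38.p14, with GC boxes in capitals.
UTF1: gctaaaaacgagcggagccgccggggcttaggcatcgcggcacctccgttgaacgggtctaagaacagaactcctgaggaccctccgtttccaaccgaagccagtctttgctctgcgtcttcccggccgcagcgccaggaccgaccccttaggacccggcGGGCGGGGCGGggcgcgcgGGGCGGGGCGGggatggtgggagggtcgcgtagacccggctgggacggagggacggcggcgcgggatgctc
The 250 bases held 4 GC boxes, which begin 90, 85, 71 and 66 bases before the start and form 2 pairs, each overlapping by 1 base. GC content was 70.8%, with 32 CpG.

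The 4 zinc finger genes differed less between replicates than UTF1. SALL4 (ENSG00000101115, chromosome 20, 51782331 to 51802521, minus strand), a transcription factor that works with POU5F1 and recruits the NuRD complex, had 252, 263 and 261 TPM, a mean of 259 ± 5.40 TPM (SD, n = 3). Its coefficient of variation was 2.09% in TPM and 2.92% in CPM, the latter above those of TRIM71, 1.70%, and DPPA4, 2.32%. ZFP42 (ENSG00000179059, chromosome 4, 187995771 to 188005046, plus strand), a relative of YY1 long used as a marker of undifferentiated cells, had 447, 450.2 and 394 TPM, a mean of 430.4 ± 31.6 TPM (SD, n = 3). PRDM14 (ENSG00000147596, chromosome 8, 70051651 to 70071693, minus strand), which brings the repressive PRC2 complex to its targets, had 305, 327 and 358 TPM, a mean of 329.9 ± 27.0 TPM (SD, n = 3). ZFP42 was lowest in replicate 3 and PRDM14 highest there, so that the ratio of ZFP42 to PRDM14 was 1.47, 1.38 and 1.10 in the 3 replicates. ZSCAN10 (ENSG00000130182, chromosome 16, 3088890 to 3099295, minus strand), a SCAN domain factor that binds POU5F1 and SOX2, had 108, 107 and 132 TPM, a mean of 116 ± 14.2 TPM (SD, n = 3). Like PRDM14 and UTF1 it was highest in replicate 3.

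L1TD1 (ENSG00000240563, chromosome 1, 62194849 to 62212328, plus strand) encodes an RNA-binding protein derived from the first open reading frame of a LINE-1 retrotransposon. It had 1358, 1218 and 1069 TPM, a mean of 1215 ± 145 TPM (SD, n = 3), from 13540, 14116 and 9087 reads. L1TD1 was above 99.7% of protein-coding genes. It was 1.67, 1.58 and 1.31 times as high as POU5F1, whose mean was 799 ± 24.9 TPM (SD, n = 3). TRIM71 (ENSG00000206557, chromosome 3, 32817997 to 32897824, plus strand), a repressor of mRNAs and a target of the let-7 microRNAs, had 537, 521 and 508 TPM, a mean of 522 ± 14.5 TPM (SD, n = 3). Its reads, 12164, 13730 and 9811, were close in number to those of L1TD1 and above those of DPPA4. The exons of TRIM71 span 8704 bp, of which the coding part takes 29.9%, against 3831 bp for L1TD1, with 67.7% coding. TRIM71 was 2nd of the cofactors by CPM, above DPPA4, and 3rd by TPM, below DPPA4, whose exons span 4967 bp.

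FOXD3 (ENSG00000187140, chromosome 1, 63322567 to 63325128, plus strand), a forkhead factor that is also an early regulator of the neural crest, has a single exon. It had 32.7, 34.4 and 35.2 TPM, a mean of 34.1 ± 1.28 TPM (SD, n = 3), from 218, 267 and 200 reads. Its level was above 75.6% of protein-coding genes, the lowest share among the cofactors in the high class. With the canonical transcript of each gene as its length, FOXD3 had 20.6 TPM, below the high class, which then began at 26.4 TPM. The length of FOXD3 itself, 2562 bp, is the same in both settings, and only the sum over all genes that TPM divides by differed. The lncRNA gene FOXD3-AS1, on the opposite strand with its start 1874 bp from that of FOXD3, had 98.2, 80.03 and 88.8 TPM, which is 3.00, 2.32 and 2.53 times FOXD3. Their exons overlap by 618 bp, which is 24.1% of the exon length of FOXD3 and 27.6% of that of FOXD3-AS1. Whether the counting used the strand of reads is not given in the sources used here, so reads in the overlap cannot be told apart. The other cofactor whose exons overlap another gene was L1TD1, over 2.87% of its length, with a Y RNA gene on which no read was counted. The other 8 genes share no exonic base with another annotated gene.

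By mean TPM the order was L1TD1, DPPA4, TRIM71, ZFP42, PRDM14, SALL4, ZSCAN10, FOXD3, UTF1 and DPPA2. In 8 of the 9 neighboring pairs the replicates of the higher gene all lay above those of the lower one. With the canonical transcript as gene length the first pair turned, with DPPA4 at 763 and L1TD1 at 733 TPM. The smallest ratio of means among the 8 pairs was 1.21, for TRIM71 over ZFP42. In replicate 3, ZFP42 over PRDM14 narrowed to 1.10 and FOXD3 over UTF1 to 1.11, the latter from 2.46 and 2.43 in replicates 1 and 2. UTF1 and DPPA2 overlapped. UTF1 was the higher of the pair in replicate 3 alone, and their means differed by 1.78 TPM, less than the SD of UTF1. In CPM, which leaves length out, SALL4 stood above ZFP42 and PRDM14, at means of 378, 288 and 198 CPM, and the 3 replicates of SALL4, from 365 to 386 CPM, overlapped those of neither gene.

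The spread of each cofactor between replicates was set against what counting alone gives. The coefficient of variation of CPM divided by its Poisson counting part was 0.673 for DPPA2 and 0.725 for FOXD3, so the spread of both was within counting error. It was 1.81 for SALL4, 1.83 for TRIM71, 2.21 for DPPA4, 3.35 for ZFP42, 4.22 for PRDM14, 4.22 for UTF1, 4.24 for ZSCAN10 and 11.8 for L1TD1. The ratio grows with the number of reads, so the 7 cofactors with at least 2500 reads were read against protein-coding genes above the same floor. The 2 sets share this floor and were not matched in depth. Those cofactors had from 2964 reads, for ZSCAN10, to 36743, for L1TD1, and the part of depth in the shares below was not tested. Of those cofactors, 5 exceeded a ratio of 2, and 37.7% of the 3079 protein-coding genes did. L1TD1 had a coefficient of variation of 10.8% in CPM where counting gives 0.914%, and of the 3079 genes 19 others had as large a ratio. That gene was singled out after its values were seen. Without replicate 3 the number of cofactors over a ratio of 2 fell from 6 to 3. These were L1TD1, at 8.66, and PRDM14, at 2.40, which were among the 6, and TRIM71, at 2.00, which was not.

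In sign, the deviation of replicate 3 followed the base composition of the transcripts, though not every deviation was beyond counting error. The 5 cofactors with at least 51.3% GC in their canonical transcript, SALL4, PRDM14, FOXD3, ZSCAN10 and UTF1, were higher in CPM in replicate 3 than in the mean of replicates 1 and 2. The 5 with at most 47.4%, L1TD1, DPPA4, ZFP42, DPPA2 and TRIM71, were lower. The log2 ratio was -0.24 for L1TD1, at 40.4% GC, 0.21 for PRDM14, at 54.4%, 0.33 for ZSCAN10, at 66.9%, and 1.23 for UTF1, at 76.9%. DPPA4, TRIM71 and SALL4 stayed near 0, at -0.05, -0.03 and 0.05. FOXD3, at 66.2% GC, had 0.10, below the lower quartile of 0.19 for protein-coding genes in the 5-point bin from 65% GC. DPPA2 had -0.17, and the spread of FOXD3 and DPPA2 was within counting error. Spearman's rho of GC content with this log2 ratio was 0.939 over the 10 cofactors and 0.917 over the 9 without UTF1. The points share their 3 libraries and rho is given as a description. Over 12678 protein-coding genes with at least 50 reads it was 0.393. The same measure was -0.903 over the cofactors and -0.213 over all these genes for replicate 1 against the other two, and -0.673 and -0.323 for replicate 2. Each of these has replicate 3 in its denominator and is no separate observation. Replicate 3 was not alone for every gene, since L1TD1 had 1303, 1174 and 1050 CPM and PRDM14 181, 195 and 218 CPM. ZSCAN10, at 89.3 and 88.9 CPM, and ZFP42, at 297 and 300 CPM, were nearly level in replicates 1 and 2. Among 35 protein-coding genes with at least 70% GC and 50 reads, the median log2 ratio without UTF1 was 0.30, and 1 other gene had as high a ratio as UTF1. For L1TD1, all 205 genes with at least 10000 reads and a GC content within 5 points of its own had a higher ratio in replicate 3, with a median of -0.08. The part of base composition in the levels of single cofactors was not tested.

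**Figure D2:**
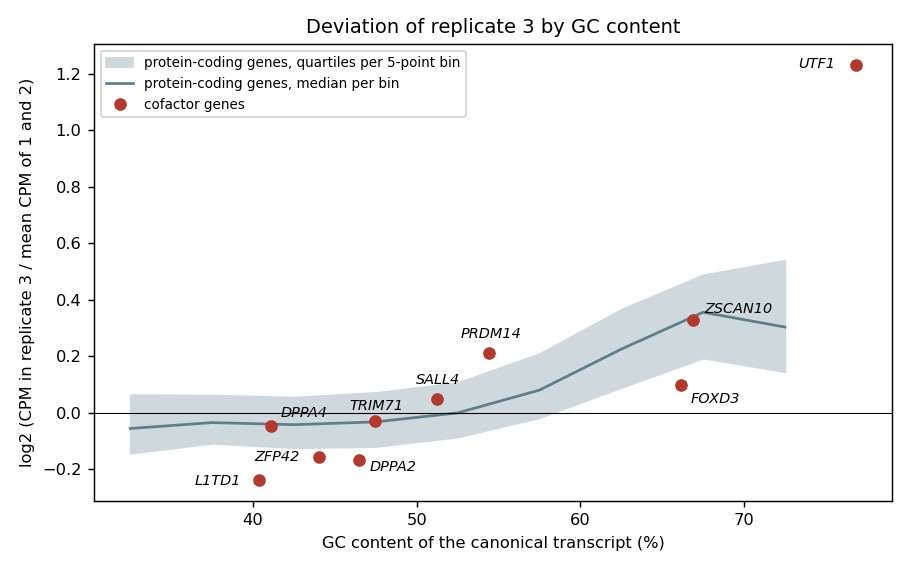
Log2 ratio of CPM in replicate 3 to the mean CPM of replicates 1 and 2, against the GC content of the canonical transcript in percent. Red points are the 10 cofactors, and the line and band are the median and quartiles of protein-coding genes with at least 50 reads in bins of 5 points. UTF1, at 76.9% GC and a ratio of 1.23, lies farthest from the others.

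RefSeq promoters, 250 bases before to 50 after the start, were matched for 8 of the 10 genes, all but SALL4 and PRDM14. GC content ran from 45.3% for DPPA4 to 71.7% for UTF1, with a median of 62.0% against 58.7% over 35116 promoters. The ratio of observed to expected CpG was 0.174 for ZSCAN10, 0.355 for DPPA4, 0.356 for DPPA2, 0.605 for L1TD1, 0.697 for ZFP42, 0.839 for TRIM71, 0.881 for FOXD3 and 1.02 for UTF1. The median over all promoters was 0.579, and the cofactors thus lay on both sides of it with no order by level. The GC box was found on either strand in 6 of the 8 promoters and in 45.0% of all promoters. UTF1 held 6 of them and ZFP42 held 3, and TRIM71 and DPPA2 held none. The CCAAT box was found in L1TD1, DPPA4 and ZFP42 and in 34.6% of all promoters. No cofactor promoter held TATAAA, which 11.5% of all promoters did, or ATGCAAAT, which 1.77% did. Absence of a match says only that these letters are not in the window.

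**Figure D3:**
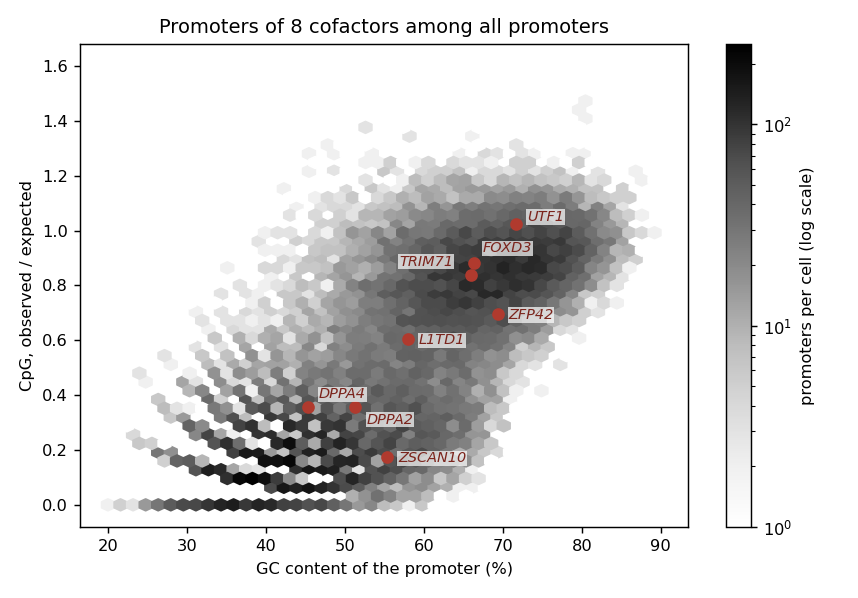
Ratio of observed to expected CpG against GC content in percent for 300-base promoter windows, with 8 cofactors as red points over the density of 35116 promoters in grey. DPPA4, DPPA2 and ZSCAN10 have the lowest ratios of the 8, at 0.355, 0.356 and 0.174, and UTF1 is highest, at 1.02.

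Gene structure varied among the cofactors. The canonical transcript had a median of 4 exons, against 8 over protein-coding genes, with 1 exon in FOXD3, 2 in UTF1, 8 in PRDM14 and 9 in DPPA2. In 2 of the 10 genes it had at most 3 exons, as in 19.7% of protein-coding genes. A single transcript is annotated for L1TD1, TRIM71, FOXD3, UTF1 and DPPA2, 5 of the 10, and for 13.6% of protein-coding genes, while ZSCAN10 has 10 transcripts and DPPA4 has 8, against a median of 6. Of 11 annotated pseudogenes named for a cofactor, 5 are copies of SALL4, 4 of DPPA2 and 2 of DPPA4. Over the 3 replicates they held 11 reads in all, 10 of them on SALL4P1 and SALL4P7 and 1 on a copy of DPPA4, against 11723 reads on SALL4. How the counting treated reads that align to several places is not given in the sources used here.

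Relatives of the cofactors covered a wide range. Of 16 genes of the same families or names, 5 were in the high class (28.8% of protein-coding genes), 5 in the medium and 4 in the low class, and ZSCAN4 and FOXD4 had no read. A count of 0 allows up to 3 reads. Among the SALL genes, SALL2 was above SALL4 in every replicate, by 1.49, 1.33 and 1.19 times, and SALL4 was 2.39 ± 0.0632 times SALL1 (SD, n = 3) and 2.97 ± 0.316 times SALL3. ZFP42 was 5.54 ± 0.429 times YY1 (SD, n = 3), the gene it arose from, and YY2 had 1.07 ± 0.570 TPM. TRIM71 was 9.49 ± 0.666 times TRIM2 (SD, n = 3), another TRIM protein with NHL repeats. DPPA3, a factor of the oocyte and germ line, had 16.1 ± 2.38 TPM (SD, n = 3) and DPPA5 had 2.78 ± 2.22 TPM, from 1, 10 and 4 reads. DPPA2 was below DPPA3 in replicate 1, at 0.943 times its level, and above it in replicates 2 and 3, at 1.33 and 1.10 times.

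Partner genes were examined from lists of known interactions. The list for SALL4 held 13 subunits of NuRD, the nucleosome remodeling and deacetylase complex that it recruits. Of these, 11 were in the high class (28.8% of protein-coding genes) and MBD2 and MBD3 in the medium class. Their means ran from 16.4 TPM for MBD2 to 209.9 TPM for the helicase CHD4, with a median of 80.9 TPM. SALL4, at 259 TPM, was above all 13. For PRDM14, the list held 4 genes of PRC2, and also CBFA2T2, another protein partner of PRDM14. EZH2 had 40.7 ± 1.37, SUZ12 45.8 ± 1.83, EED 18.5 ± 0.203 and JARID2 391 ± 24.1 TPM (SD, n = 3), and CBFA2T2 had 13.5 ± 1.16 TPM. PRDM14 itself was above all of these but JARID2.

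LIN28A, an RNA-binding partner of L1TD1, had 2576 ± 64.7 TPM (SD, n = 3), which is 1.90, 2.17 and 2.35 times L1TD1, and LIN28B had 217 ± 5.53 TPM. AGO2, which TRIM71 binds, had 114 ± 9.21 TPM. CDKN1A and EGR1, 2 mRNAs that TRIM71 is known to repress, had 7.49 ± 1.35 and 5.21 ± 1.89 TPM (SD, n = 3), in the medium class. Of the ligase that degrades SALL4 in the presence of thalidomide, the receptor CRBN had 17.6 ± 0.322 TPM, DDB1 125 ± 1.95, CUL4A 77.0 ± 3.69 and CUL4B 12.3 ± 0.283 TPM (SD, n = 3). The cofactors are also used in other cells, FOXD3 in the neural crest and PRDM14 in germ cells, and markers of these were measured. Of 7 neural crest markers 5 were below 1 TPM, among them SOX10 at 0.624 and PAX3 at 0.266 TPM. For scale, YY2, at 1.07 TPM, was above 33.2% of protein-coding genes, so at most that share lies below 1 TPM. ERBB3, at 41.6 TPM, and NGFR, at 21.0 TPM, made up most of their sum, which lay between 63.6 and 65.6 TPM in the 3 replicates. Of 6 germ cell markers, TFAP2C, at 52.6 ± 6.05 TPM (SD, n = 3), was in the high class and DPPA3, at 16.1 TPM, in the medium class. The others were in the low class, with DAZL at 2.98, SOX17 at 1.68, NANOS3 at 0.216 and DDX4 at 0.0680 TPM. The part of other cell types in the levels of the cofactors was not tested.

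**Figure D4:**
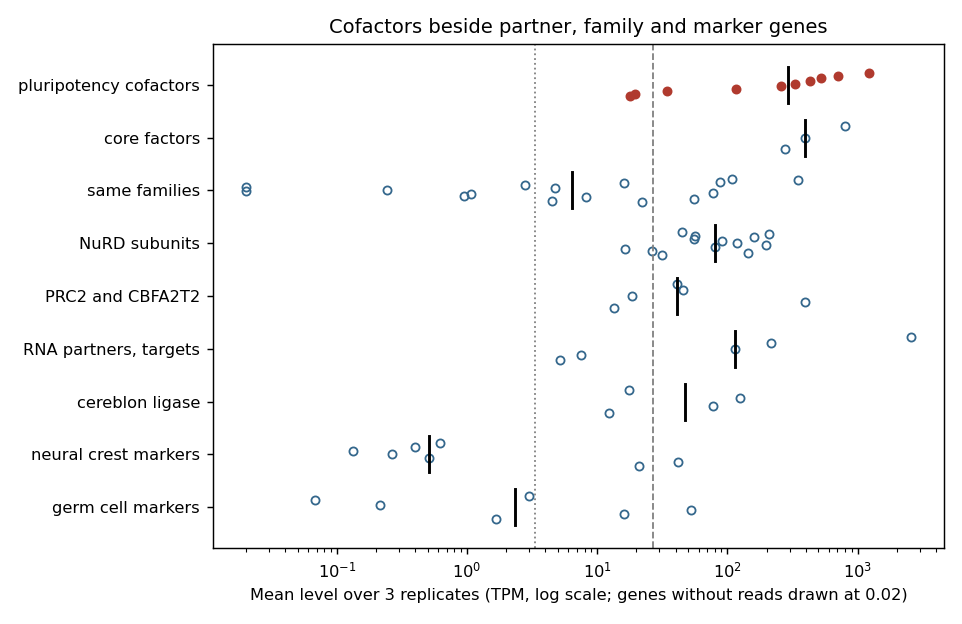
Mean TPM over 3 replicates, on a log axis, of the 10 cofactors (filled) and of the genes of each list (open), with the median of each as a black bar. The dashed and dotted lines at 26.96 and 3.35 TPM are the class boundaries, and the median of the cofactors, 294 TPM, is above that of each list other than the core factors, 397 TPM.

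None of the following lineage markers was in the high class. Summed over each list, the replicates had 3.67 to 5.69 TPM for 2 neuroectoderm genes, 24.3 to 39.0 TPM for 4 mesoderm genes, 8.25 to 11.9 TPM for 3 endoderm genes and 7.14 to 9.59 TPM for 3 trophectoderm genes, of which CDX2 had no read. MIXL1, at 22.3 ± 5.66 TPM (SD, n = 3), was the highest of the mesoderm genes. The 4 markers of the naive state summed to between 9.54 and 16.7 TPM, with KLF4 at 7.67 and TFCP2L1 at 5.15 TPM in the medium class and DNMT3L at 0.302 and KLF17 at 0.0349 TPM in the low class. The 4 fibroblast markers summed to between 38.2 and 43.8 TPM, of which COL1A2, at 25.6 TPM, and COL1A1, at 14.6 TPM, both in the medium class, made up most, with DCN at 0.0985 and LUM at 0.178 TPM. With the core factors at 275 TPM for NANOG, 397 TPM for SOX2 and 799 TPM for POU5F1, the label of embryonic stem cells was met by its defining markers.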

How the data were processed

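RNA-seq was performed in triplicate on untreated H9 cells. The authors trimmed reads with trim_galore (0.4.4), aligned them to GRCh38 with tophat (2.1.1) and deposited whole-number read counts per Ensembl gene, without normalization. For the counting, the tool, the annotation and the strand setting were not given in the sources used here. The TPM values of the study, made with cufflinks (2.2.1), were not used.

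Counts were joined to GENCODE release 44, on the same genome build, where 56948 identifiers matched. TPM was computed over the union of exons of each gene, and CPM over the total counts. The study's classes were applied to mean TPM of protein-coding genes. Counting intervals were exact Poisson at 95%. The canonical transcript is the one that Ensembl tags as such. The chi-square of counts per degree of freedom was 1.81 for replicates 1 and 2, 4.17 for 1 and 3 and 3.42 for 2 and 3, so no library appeared to be deposited more than once. edgeR (4.0.16) and DESeq2 (1.42.0) gave scaling factors for the alternatives, and the other steps ran in Python 3.11.15 with pandas 2.3.3, numpy 2.4.6 and scipy 1.17.1, and in R 4.3.3. Classes and spread were tested on simulated counts. No test between groups was possible with 1 condition.

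Cofactors, gene lists, motifs and alternatives were chosen with earlier results of these data known. Genes looked up were the cofactors, all of those lists, genes that overlap a cofactor or start within 5 kb of it, and pseudogenes named for one. Not all of them are named above. The description of replicate 3 by GC content and the genes set beside UTF1 and L1TD1 were chosen after their values were seen. With 3 libraries of 1 condition, no likeness of patterns across samples was computed.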

Additional observations from a re-analysis of the deposited data

How the results depend on the processing

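The number of cofactors in the high class, 8, lay between 7 and 10 under the alternatives tried, and the order by TPM kept at least 6 of its 9 neighboring pairs. The number was 7 with the longest or the canonical transcript as gene length, in CPM, with a threshold of 1 TPM and over the genes kept by filterByExpr. FOXD3 was the cofactor that left the high class in each of these settings. With all matched genes classified the number was 10. The median of 294 TPM was 237 TPM with the longest transcript as gene length, 190.4 TPM with the canonical transcript, 243 in CPM, which is another unit, and 364 TPM with protein-coding genes alone in the total, since a smaller total raises each TPM. L1TD1 has the same length, 3831 bp, as union of exons, longest and canonical transcript, and with these it had 1215, 914 and 733 TPM. Its fall was therefore that of the total alone. The median lies between PRDM14 and SALL4, whose longest and canonical transcripts have 2269 and 5209 bp, against unions of 2368 and 5773 bp. A shorter length raises the TPM of a gene, so the lower median in these settings came from the total and not from these lengths. With the canonical transcript DPPA4, at 763 TPM, stood above L1TD1, at 733 TPM, and without replicate 3 DPPA2, at 18.7 TPM, stood above UTF1, at 13.7 TPM. The number of cofactors with a spread over 2 times the counting part, 6, was 7 with TMM or DESeq2 factors and from 3 to 7 with 1 replicate left out, with 3 without replicate 3. Rescaling by TMM or DESeq2 factors and thinning the counts to 10% left the mean of each cofactor within 1 SD of its value. Depth limits UTF1 and DPPA2, with 179 and 196 reads over the 3 replicates. No paired analysis was possible because only untreated cells were sequenced.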
